A study of Homo sapiens with 6 samples.

Results

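The genes that bring iron into the cell, store it, release it and export it were followed through 6 RNA libraries of the established cell line MIA PaCa-2, which was derived from a human pancreatic carcinoma. They were chosen by name, with the FPKM values of these libraries already known: the transferrin receptor gene TFRC, the ferritin subunit genes FTH1 and FTL, SLC40A1, SLC11A2, IREB2, ACO1, NCOA4, STEAP3 and PCBP1. All 10 had a row among the 18268 rows of the table. IREB2 was present only in a row joined with its neighbour HYKK, so the value of IREB2 alone is not known. Total RNA was sequenced for 3 libraries of LINC00901 knockout cells (KO 1, KO 2 and KO 3), in which a gene for a long non-coding RNA was targeted, and for 3 libraries of vector control cells (vector control 1, 2 and 3), all grown in the same medium with foetal bovine and horse serum. The labels state neither whether the knockout line was 1 clone or a pool nor whether the libraries of a group came from separate cultures. Spread between libraries may therefore be technical.

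Iron reaches most cells bound to transferrin, which the transferrin receptor carries into endosomes. There a reductase and a transporter pass it into the cytosol. Iron that is not used is held in the ferritin shell of heavy and light chains, and ferroportin exports what leaves the cell. The iron regulatory proteins IRP1 and IRP2 bind a stem-loop, the iron-responsive element, in several of these mRNAs when iron is low. Bound in the 3′ UTR of TFRC they protect the mRNA from decay, and bound in the 5′ UTR of the ferritin mRNAs they block translation. FPKM, a level per transcript length and library size, can register an mRNA's abundance but not its translation.

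The element itself is shown because its place in the mRNA differs between TFRC and the ferritin genes. Protein-coding transcripts of GENCODE 29 were searched on the sense strand for the motif CNNNNNCAGTGN, in which the 5 bases before CAGTGN pair with the 5 bases after it, G with U allowed. With all 5 pairs formed, the motif was found in the 5′ UTR of 36 of 19644 protein-coding genes (0.183%) and in the 3′ UTR of 132 (0.672%). Among the 10 iron genes, 4 held it: TFRC with 4 copies in its 3′ UTR, and FTH1, FTL and SLC40A1 with 1 copy each in the 5′ UTR. The search finds this motif only, so an element with another loop sequence would not be counted. Each 30-base window is written 5′ to 3′ as DNA, with the 6 loop bases in capitals.
FTH1: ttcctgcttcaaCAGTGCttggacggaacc
FTL: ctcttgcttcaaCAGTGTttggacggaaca
SLC40A1: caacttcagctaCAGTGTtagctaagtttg
TFRC copy 1: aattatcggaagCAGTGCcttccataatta
TFRC copy 2: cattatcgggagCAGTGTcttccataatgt
TFRC copy 3: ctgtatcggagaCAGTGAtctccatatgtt
TFRC copy 4: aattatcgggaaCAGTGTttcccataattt

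On GRCh38 these windows lie at chr11:61967573-61967602 on the minus strand for FTH1, chr19:48965335-48965364 on the plus strand for FTL and chr2:189580660-189580689 on the minus strand for SLC40A1. The TFRC copies, in the order given, lie on the minus strand at chr3:196050978-196051007, chr3:196050574-196050603, chr3:196050509-196050538 and chr3:196050462-196050491. The FTH1 and FTL windows share 26 of their 30 bases. The 6 pairs of TFRC copies share between 19 and 25 bases, and a TFRC copy shares between 9 and 13 bases with a ferritin window. SLC11A2, with 4 of 5 pairs formed, had a match in its 3′ UTR at chr12:50988268-50988297 on the minus strand, a looser form that 4.62% of protein-coding genes hold in a 3′ UTR. ACO1 and IREB2 held that form too, and NCOA4, STEAP3 and PCBP1 had no match in these UTRs.
SLC11A2: agccatcagagcCAGTGTgtttctatggtt

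The libraries did not divide by genotype alone. Over the 9624 tested genes, which had at least 1 FPKM in at least 3 libraries, vector control 1 correlated at r = 0.932 with KO 3 but at r = 0.904 with vector control 2 and r = 0.906 with vector control 3. KO 2 and KO 3 correlated at r = 0.970. Such r values run over genes of the same libraries and describe likeness only. The table has 0 rows for LINC00901, so the knockout was not checked here and each direction rests on the labels. Of the epithelial markers, KRT18 was at 28.78 to 58 FPKM in KO libraries and 70.41 to 79.42 FPKM in vector controls (log2 fold change -0.94). The row that joins KRT8 with KRT78 was at 7.23 to 14.29 FPKM in KO libraries and 17.61 to 19.76 FPKM in vector controls (-0.92). Neither overlapped between the groups and neither was called by limma, and their part in the iron gene values was not tested. KRT19 ranged from 12.69 to 39.34 FPKM over the 6 libraries, while EPCAM and CDH1 did not exceed 0.14 FPKM. VIM, a mesenchymal filament gene, was at 459.52 FPKM or above in every library. Erythroid and hepatocyte markers, which could bring iron genes of other cell types, summed to at most 0.69 FPKM and 0.3 FPKM in any library. Those of leukocytes and macrophages summed to 1.33 to 1.83 FPKM in KO libraries and 0.18 to 0.91 FPKM in vector controls, most of it LYZ in KO libraries, with PTPRC, CD3E, CD163 and AIF1 listed at 0 in all 6. LYZ itself, the lysozyme gene, was at 1.45, 1.83 and 1.2 FPKM in KO 1 to 3 and listed at 0 in every vector control. LYZ was called higher by limma, but it met the filter only through the KO libraries, so its direction was set by the filter. Its part in the iron gene values was not tested. Fibroblast markers summed to 68.15 to 96.84 FPKM in KO libraries and 68.91 to 98.89 FPKM in vector controls, nearly all COL1A2 and COL3A1, with DCN listed at 0. COL1A2 was at 50.63 to 56.18 FPKM in KO libraries and 24.72 to 35.84 FPKM in vector controls (log2 fold change 0.74), and COL3A1 at 16.46 to 41.24 FPKM in KO libraries and 43.1 to 62.02 FPKM in vector controls (-1.19), both without overlap and neither called.

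TFRC, the receptor through which transferrin-bound iron enters, differed more within each group than between the groups. It stood at 29.02, 93.92 and 96.48 FPKM in KO 1 to 3, against 126.53, 22.17 and 21.26 FPKM in vector control 1 to 3. The high libraries were vector control 1, KO 3 and KO 2, and the low ones were KO 1, vector control 2 and vector control 3, so the groups overlapped widely. Among the vector controls, library 1 held 5.71 times the level of library 2 and 5.95 times that of library 3, while libraries 2 and 3 were within 1.04 times of each other. Among the KO libraries, KO 1 held 0.309 times the level of KO 2 and 0.301 times that of KO 3. The same-level libraries differed by genotype in opposite directions. KO 1 was at 1.31 and 1.36 times vector control 2 and 3, and KO 2 and KO 3 were at 0.742 and 0.763 times vector control 1. In RNA of whole cultures, fewer cells with high TFRC and less TFRC RNA per cell cannot be told apart.

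FTH1, the ferritin heavy chain with the ferroxidase site, divided the libraries the opposite way. It stood at 259.63, 203.08 and 212.68 FPKM in KO 1 to 3, against 205.58, 384.49 and 331.25 FPKM in vector control 1 to 3. The 3 libraries highest in TFRC were the 3 lowest in FTH1, and all 6 libraries kept to that division. Within the vector controls, library 1 held 0.535 and 0.621 times the FTH1 of libraries 2 and 3.

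FTL, the ferritin light chain that favours the mineral core, was the most abundant transcript of the whole table in 5 of the 6 libraries and ranked 3 in vector control 1. It stood at 2152.5, 2551.17 and 2177.77 FPKM in KO 1 to 3, against 1336.84, 3158.87 and 3082.27 FPKM in vector control 1 to 3. Vector control 1 was the lowest library, the KO libraries lay together in the middle and vector control 2 and 3 were highest. FTL thus shared with FTH1 the low level in vector control 1, but KO 1 was not above KO 2 or KO 3. The ratio of FTL to FTH1 was 8.29, 12.6 and 10.2 in KO 1 to 3 and 6.50, 8.22 and 9.30 in vector control 1 to 3. Both ferritin rows together made up 1.96%, 2.12% and 1.85% of the FPKM sum in KO 1 to 3 and 1.15%, 2.73% and 2.54% in vector control 1 to 3. GENCODE 29 names 25 FTH1 and 16 FTL pseudogenes, of which 0 have a row here, so ferritin values depend on how reads shared with these copies were assigned.

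**Figure D1:**
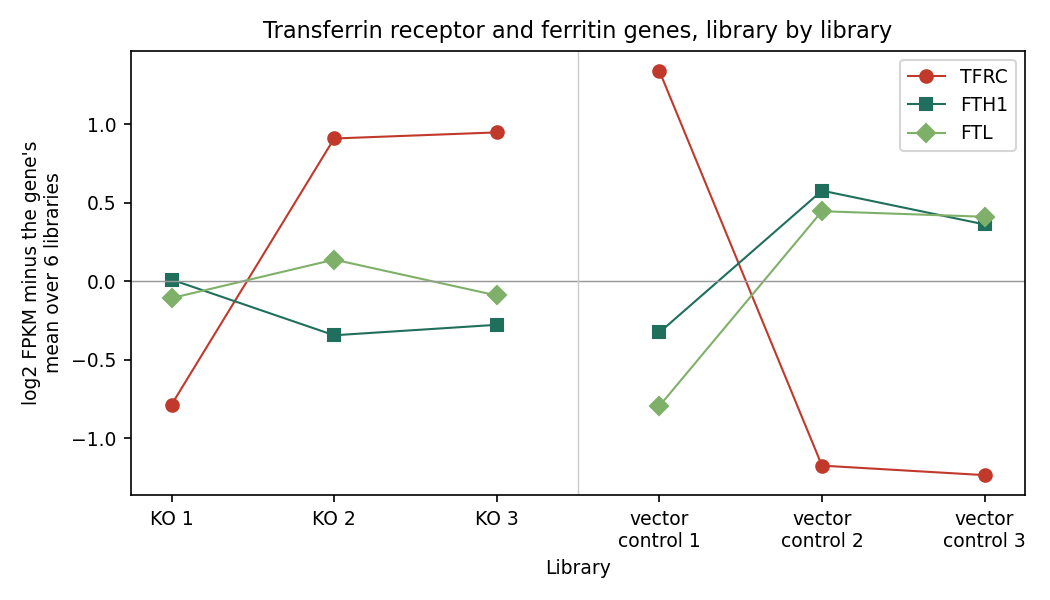
Log2 FPKM of TFRC, FTH1 and FTL in each library, minus that gene's mean over the 6 libraries (vertical axis, log2 units), with KO libraries left of vector controls. TFRC is above its mean in KO 2, KO 3 and vector control 1, where FTH1 is below its own, and the lines only join libraries of a group.

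Set against each other, storage and uptake transcripts moved over a wide range. The FTH1 level was 8.95, 2.16 and 2.20 times the TFRC level in KO 1 to 3, against 1.63, 17.3 and 15.6 times in vector control 1 to 3. The FTL level was 74.2, 27.2 and 22.6 times the TFRC level in KO 1 to 3, against 10.6, 142 and 145 times in vector control 1 to 3. For both ferritin genes the ratio to TFRC was lowest in vector control 1 and highest in vector control 2 or 3, so the widest gap lay within the control group. The 67 rows of replication-dependent histones, whose transcripts are made during DNA synthesis, divided the libraries as TFRC did. They made up 3.06%, 5.28% and 5.33% of the FPKM sum in KO 1 to 3 and 6.35%, 2.87% and 3.33% in vector control 1 to 3. Their part in the TFRC and ferritin values was not tested.

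The other uptake genes were low. SLC11A2, which encodes the endosomal iron transporter DMT1, stood at 3.37, 2.82 and 3.13 FPKM in KO 1 to 3, against 2.33, 3.98 and 3.52 FPKM in vector control 1 to 3. As with FTL, vector control 1 was the lowest and vector control 2 and 3 were the highest, with the KO libraries between them. STEAP3, the endosomal ferrireductase that acts before DMT1, stood at 3.05, 2.05 and 2.18 FPKM in KO 1 to 3, against 2.01, 4.79 and 2.45 FPKM in vector control 1 to 3. Here vector control 2 alone stood high, at 1.96 times vector control 3. STEAP3 overlaps the antisense gene STEAP3-AS1, and strand use in the counting is not given in the sources used here. SLC40A1, which encodes ferroportin, the known iron exporter of cells, was at 0.09, 0.09 and 0 FPKM in KO 1 to 3 and 0.02, 0.04 and 0 FPKM in vector control 1 to 3. It lay below the filter, and no difference in it could be read.

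Of the sensors, the joined row of HYKK and IREB2, which holds the IRP2 gene, was the single row whose groups did not overlap. It stood at 6.57, 6.89 and 7.48 FPKM in KO 1 to 3, against 6.34, 4.28 and 3.86 FPKM in vector control 1 to 3. The lowest KO library and vector control 1 lay next to each other, while the other controls lay well below. ACO1, whose product is cytosolic aconitase when it holds an iron-sulphur cluster and IRP1 when it does not, stood at 10.12, 6.48 and 6.28 FPKM in KO 1 to 3, against 7.88, 8.66 and 8.21 FPKM in vector control 1 to 3. KO 1 was above and KO 2 and KO 3 were below all controls, which lay close together.

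NCOA4, the receptor that takes ferritin to the lysosome so that its iron is released, stood at 46.55, 29 and 33.26 FPKM in KO 1 to 3, against 44.83, 35.91 and 33.23 FPKM in vector control 1 to 3. The first library of each group was the highest of its group, and the groups overlapped throughout. PCBP1, a chaperone that delivers iron to ferritin and also binds RNA, was the steadiest of the genes. It stood at 105.56, 99.59 and 101.37 FPKM in KO 1 to 3, against 95.19, 105.17 and 107.78 FPKM in vector control 1 to 3, and its highest library was 1.13 times its lowest. PCBP1 overlaps PCBP1-AS1, FTH1 overlaps BEST1 and IREB2 overlaps AC027228.1, all on the opposite strand. TFRC overlaps AC024937.1 and RNU7-18P on the opposite strand, and SLC11A2 overlaps RNU6-87P on the same strand. GENCODE 29 also names 3 NCOA4 pseudogenes, of which 0 have a row here.

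**Figure D2:**
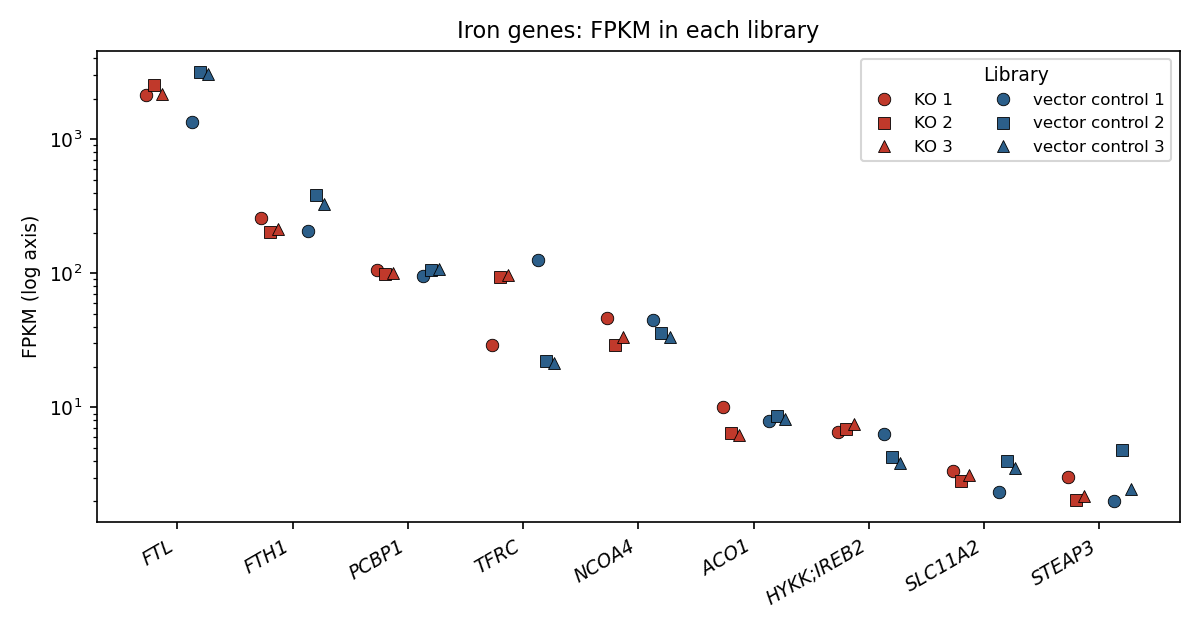
FPKM of each iron gene in each library on a log axis, with genes in order of their mean, KO libraries in red on the left of each gene and vector controls in blue on the right. SLC40A1, at most 0.09 FPKM, is left out. FTL and FTH1 stand above PCBP1 in every library, and TFRC has the widest spread.

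In FPKM, which is per transcript length, the order of levels was clear at the top and not below it. FTL exceeded FTH1, and FTH1 exceeded PCBP1, without overlap over the 6 libraries. TFRC overlapped PCBP1 above it and NCOA4 below it. ACO1 overlapped the HYKK and IREB2 row, which overlapped SLC11A2 and STEAP3, which overlapped each other, and SLC40A1 lay under all of them.

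The comparison of KO with vector control asks whether loss of LINC00901 goes with a change in these transcripts. Because the genes were chosen with these values known, the differences are given as a description. The log2 fold change of TFRC on log2(FPKM + 1), KO minus vector control, was 0.69 with a standard error (SE) of 0.76. Its means were 73.1 ± 38.2 FPKM in KO libraries and 56.7 ± 60.5 FPKM in vector controls (SD, n = 3 each). FTH1 averaged 225 ± 30.3 FPKM and 307 ± 91.9 FPKM in KO and vector control libraries (SD, n = 3 each), with a log2 fold change of -0.41 (SE 0.25). The HYKK and IREB2 row averaged 6.98 ± 0.462 FPKM in KO libraries and 4.83 ± 1.33 FPKM in vector controls (SD, n = 3 each; log2 fold change 0.48, SE 0.19). The remaining 6 tested genes had log2 fold changes between -0.20 for STEAP3 and -0.01 for PCBP1, each smaller than its SE. Over the 9 tested rows the median was -0.04 and 2 were above 0. Over all tested genes the median was 0.08 and 59.3% were above 0.

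Limma calls are not given for the iron genes, which were chosen with these values known. At a Benjamini-Hochberg adjusted p below 0.05, limma called 1.35% of all tested genes (0.509% higher and 0.842% lower in KO). An unadjusted p below 0.05 was reached by 17.5% of all tested genes. All calls numbered 49 higher and 81 lower in KO libraries, or 31 and 99 after quantile normalization. The groups did not overlap in 1 of the 9 rows, higher in KO, against 15.4% of tested genes in that direction, 8.35% in the other and 23.8% in either. Leaving out vector control 1 moved TFRC, FTH1, FTL and the HYKK and IREB2 row further than leaving out any other library. Without it, the log2 fold change of TFRC was 1.52 and that of FTH1 -0.67. FTL was then at -0.45 and the HYKK and IREB2 row at 0.65. Limma called 13.8% of all genes in that fit. Without KO 1, TFRC was at 1.25, without KO 2 at 0.42, without KO 3 at 0.40, without vector control 2 at 0.29 and without vector control 3 at 0.26.

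**Figure D3:**
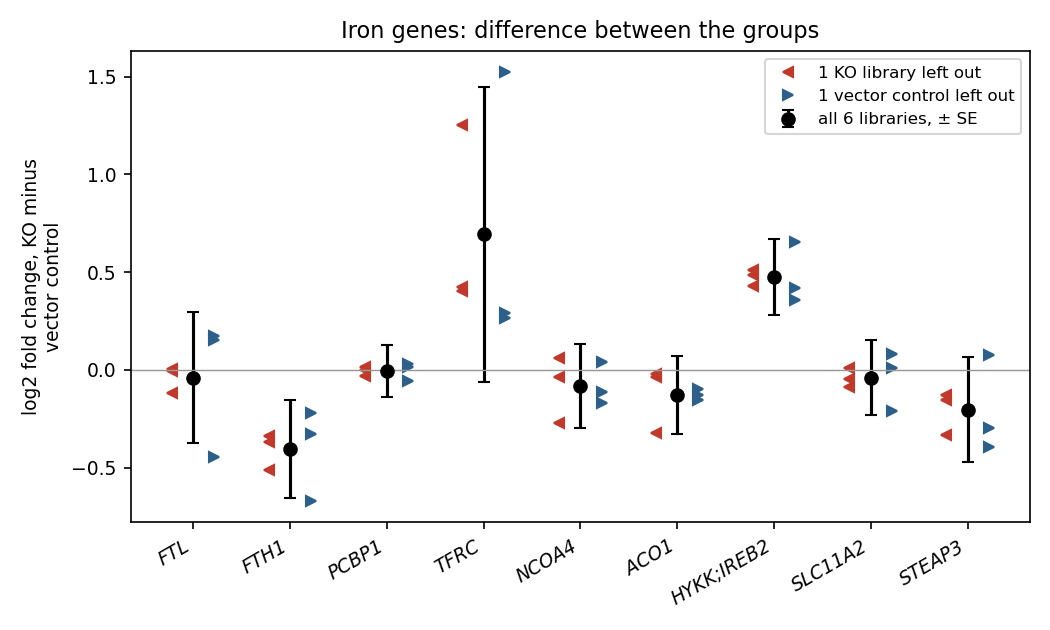
Log2 fold change, KO minus vector control, of each tested iron gene with all 6 libraries (black, bars ± SE), with 1 KO library left out (red) and with 1 vector control left out (blue). TFRC runs from 0.26 to 1.52 as libraries are left out, while PCBP1 stays close to 0.

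The spread within a group was measured as the range over its 3 libraries on log2(FPKM + 1). For TFRC it was 1.70 in KO libraries and 2.52 in vector controls. Only 1.23% of all tested genes had as wide a range in the KO libraries, and 0.426% in the vector controls. FTL had a range of 0.25 in KO libraries and 1.24 in vector controls, the second reached by 6.73% of tested genes. FTH1 had ranges of 0.35 and 0.90. ACO1 was the reverse, with 0.61 in KO libraries and 0.12 in vector controls. PCBP1, at 0.08 and 0.18, was narrower than most genes in both groups. The medians over the 9 rows were 0.35 in KO libraries and 0.59 in vector controls, against 0.36 and 0.46 over all tested genes.

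**Figure D4:**
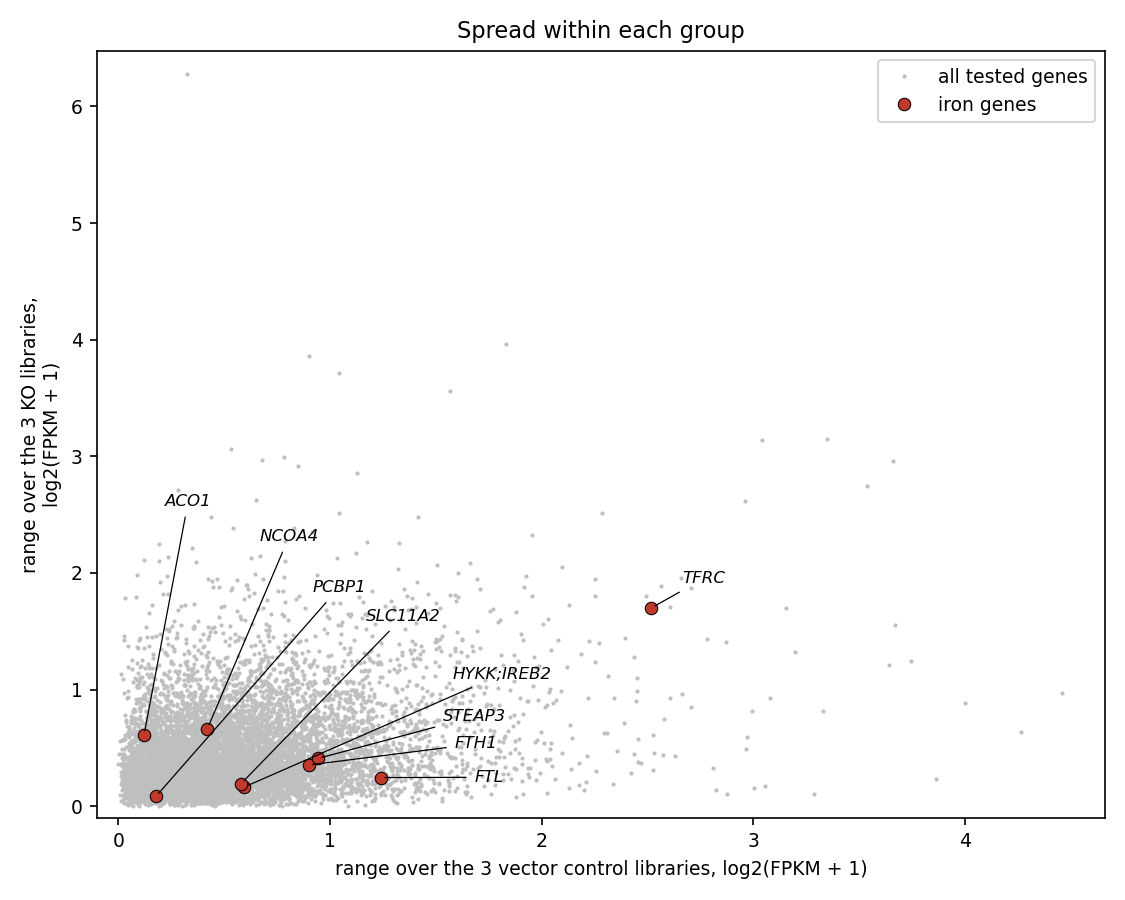
Range of log2(FPKM + 1) over the 3 vector controls (horizontal axis) and over the 3 KO libraries (vertical axis) for every tested gene (grey) and the 9 tested iron gene rows (red, named). TFRC lies far from the other iron genes on both axes.

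Genes with the pattern most like that of TFRC were found by Pearson r of log2(FPKM + 1) over the 6 libraries, among 4969 genes with a mean of at least 5 FPKM. They were the integrin subunit gene ITGAV (r = 0.9998), the proteasome ATPase gene PSMC2 (r = 0.998) and the mitochondrial ribosomal protein gene MRPS21 (r = 0.996). ITGAV kept the order at a much smaller scale, at 16.12, 18.64 and 18.69 FPKM in KO 1 to 3 and 19.31, 15.52 and 15.52 FPKM in vector control 1 to 3. Those most like FTH1 were the peptide transporter gene TAP1 (r = 0.999), the galectin gene LGALS3 (r = 0.996) and the phosphate transporter gene SLC20A1 (r = 0.988). SLC20A1 stood at 92.14, 48.86 and 48.84 FPKM in KO 1 to 3, against 40.13, 223.47 and 194.28 FPKM in vector control 1 to 3. Of the 4969 candidates, 205 reached r = 0.95 or above with TFRC and 73 with FTH1. The 6 libraries fall in clusters, so these r values describe likeness only.

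The wider iron pathway was taken from 5 lists of textbook genes, none of them among the 10 above. A row of its own was present for 90 of these genes, of which 69 were tested. By limma, 0 rose and 0 fell at an adjusted p below 0.05. At an unadjusted p below 0.05 there were 12, or 17.4%, close to the 17.5% of all tested genes. The median log2 fold change was -0.02. The groups did not overlap in 21.7%, 6 higher and 9 lower in KO libraries, near the 23.8% of all tested genes, of which 15.4% were higher and 8.35% lower. Without vector control 1, 13 of the 69 were called (18.8%, where 13.8% of all genes were), 7 higher and 6 lower in KO libraries. With any other single library left out, 0 of the 69 were called. The calls of single genes given below without vector control 1 therefore rest on that omission.

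Of 8 other iron transport and storage genes tested, 0 were called, where 1.35% of all tested genes were. The groups did not overlap in 5 of them (62.5%), 2 higher and 3 lower in KO libraries, where 23.8% of all tested genes did not, 15.4% higher and 8.35% lower. SLC39A8, a zinc and manganese importer that also carries iron, averaged 0.377 ± 0.323 FPKM in KO libraries and 1.90 ± 0.449 FPKM in vector controls (SD, n = 3 each). This was the largest difference of the list (log2 fold change -1.09). Its KO values were 0.02, 0.65 and 0.46 FPKM, so it met the filter of 1 FPKM in 3 libraries only through the vector controls. SLC39A8 is among the 5 without overlap, but its direction and lack of overlap were set by the filter. Its relative SLC39A14 averaged 32.9 ± 0.904 FPKM and 38.3 ± 1.67 FPKM in KO and vector control libraries (-0.21, limma adjusted p = 0.433). HFE, a partner of the transferrin receptor, averaged 4.94 ± 1.46 FPKM in KO libraries and 2.08 ± 1.20 FPKM in vector controls (0.98, limma adjusted p = 0.191). HERC2, the ubiquitin ligase that turns over NCOA4, averaged 7.77 ± 0.0889 FPKM in KO libraries and 5.15 ± 0.827 FPKM in vector controls (0.52, limma adjusted p = 0.175). Without vector control 1, limma called 13.8% of all genes. In this fit HERC2 (0.62, limma adjusted p = 0.0317) and SLC39A8 (-0.97, its direction set by the filter) were called. Hepcidin (HAMP), the second transferrin receptor TFR2 and the oxidases HEPH and CP were below the filter, at 0.33 FPKM or less.

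Among 8 tested genes that act on iron-responsive elements or TFRC mRNA, or carry the element themselves, 0 were called, where 1.35% of all tested genes were. The groups did not overlap in 25% of them, 1 higher and 1 lower in KO libraries, near the 23.8% of all tested genes. ZC3H12A, the RNase Regnase-1 that cleaves TFRC mRNA, stood at 0.86, 1.05 and 1.33 FPKM in KO 1 to 3, against 0.97, 5.74 and 6.20 FPKM in vector control 1 to 3 (log2 fold change -1.14, limma adjusted p = 0.274). It was low in the 4 libraries KO 1, KO 2, KO 3 and vector control 1, of which TFRC was high in all but KO 1, and high in vector control 2 and 3, where TFRC was low. RC3H1, the RNA-binding protein Roquin-1, stood at 7.49, 10.56 and 10.86 FPKM in KO 1 to 3, against 8.49, 2.64 and 5.35 FPKM in vector control 1 to 3 (0.80, limma adjusted p = 0.290). It was highest in KO 2, KO 3 and vector control 1, where TFRC was high. The part of ZC3H12A or RC3H1 in the TFRC values was not tested. EPAS1, the hypoxia factor gene HIF2A with an element in its 5′ UTR, averaged 0.977 ± 0.0833 FPKM in KO libraries and 2.23 ± 0.496 FPKM in vector controls without overlap (SD, n = 3 each; -0.70, limma adjusted p = 0.106). Its KO values were 0.91, 0.95 and 1.07 FPKM, so it met the filter only with the vector controls, where it was high. The direction and lack of overlap of EPAS1 are therefore not independent of the filter. CDC42BPA, a kinase gene with an element in its 3′ UTR, averaged 7.32 ± 0.147 FPKM in KO libraries and 4.49 ± 1.42 FPKM in vector controls (0.63, limma adjusted p = 0.201). Without vector control 1, limma called 13.8% of all genes. In this fit ZC3H12A (-1.75, limma adjusted p = 0.00522), EPAS1 (-0.83, its direction tied to the filter) and CDC42BPA (0.83, limma adjusted p = 0.0181) were called. The ubiquitin ligase scaffold gene CUL1 was called too.

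Of 27 tested genes of mitochondrial iron and iron-sulphur clusters, 0 were called, where 1.35% of all tested genes were, and the list median was -0.09. The groups did not overlap in 11.1% of them, 1 higher and 2 lower in KO libraries, where 23.8% of all tested genes did not. CIAPIN1, an electron carrier of cytosolic cluster assembly, averaged 13.5 ± 1.89 FPKM in KO libraries and 8.25 ± 2.32 FPKM in vector controls (log2 fold change 0.67, limma adjusted p = 0.196), and ISCA2, a late-acting assembly factor, had 0.59 (limma adjusted p = 0.345). SLC25A37, the mitochondrial iron importer mitoferrin-1, averaged 2.86 ± 0.656 FPKM in KO libraries and 5.40 ± 2.09 FPKM in vector controls (-0.69, limma adjusted p = 0.255). HSPA9, the mitochondrial chaperone, stood at 38.30, 61.82 and 64.37 FPKM in KO 1 to 3, against 87.73, 58.94 and 63.54 FPKM in vector control 1 to 3 (-0.36, limma adjusted p = 0.495). Without vector control 1, limma called 13.8% of all genes. In this fit CIAPIN1 (0.87, limma adjusted p = 0.0274) and the cluster assembly gene CIAO2A were called.

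Of 16 tested haem genes, 0 were called, where 1.35% of all tested genes were, and the list median was -0.03. The groups did not overlap in 18.8% of them, 2 higher and 1 lower in KO libraries, where 23.8% of all tested genes did not. HMOX1, the haem oxygenase that frees iron from haem, stood at 12.06, 12 and 9.27 FPKM in KO 1 to 3, against 9.01, 29.48 and 31.77 FPKM in vector control 1 to 3 (log2 fold change -0.84, limma adjusted p = 0.368). As with FTL, vector control 1 was the lowest library and the other controls the highest. ALAD, the second enzyme of haem synthesis, averaged 3.48 ± 0.478 FPKM in KO libraries and 1.96 ± 0.0635 FPKM in vector controls without overlap (SD, n = 3 each; 0.59, limma adjusted p = 0.130). FLVCR1, a haem and choline transporter, had 0.50 (limma adjusted p = 0.461) and the haem-binding PGRMC1 had -0.34 (limma adjusted p = 0.317). Without vector control 1, limma called 13.8% of all genes. In this fit HMOX1 (-1.39, limma adjusted p = 0.00968) and ALAD (0.60, 0.0476) were called.

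Of 10 tested genes of ferroptosis, the iron-dependent form of cell death, 0 were called, where 1.35% of all tested genes were, and the list median was -0.02. The groups did not overlap in 20% of them, 0 higher and 2 lower in KO libraries, where 23.8% of all tested genes did not. GCH1, the first enzyme of tetrahydrobiopterin synthesis, averaged 2.33 ± 0.446 FPKM in KO libraries and 4.73 ± 0.165 FPKM in vector controls without overlap (SD, n = 3 each; log2 fold change -0.79, limma adjusted p = 0.0694). SLC7A11 and SLC3A2 encode the chains of the cystine importer and divided the libraries in opposite ways, SLC7A11 being lowest and SLC3A2 highest in vector control 2 and 3. SLC7A11 was at 3.91, 6.03 and 6.21 FPKM in KO 1 to 3, against 7.04, 1.77 and 1.28 FPKM in vector control 1 to 3 (0.76, limma adjusted p = 0.432). SLC3A2 was at 20.61, 17.65 and 17.34 FPKM in KO 1 to 3, against 19.27, 38.68 and 38.55 FPKM in vector control 1 to 3 (-0.70, limma adjusted p = 0.255). VDAC3, an outer-membrane channel of mitochondria, had 0.36 (limma adjusted p = 0.573). ACSL4, also on this list, was present only in a row joined with KCNE5 and so is not among the 10. That row averaged 9.68 ± 0.539 FPKM in KO libraries and 16.2 ± 0.774 FPKM in vector controls without overlap (SD, n = 3 each; -0.69, limma adjusted p = 0.0666). Without vector control 1, limma called 13.8% of all genes. In this fit SLC3A2 (-1.02, limma adjusted p = 0.0126), SLC7A11 (1.32, 0.0214) and GCH1 (-0.77, 0.0329) were called.

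**Figure D5:**
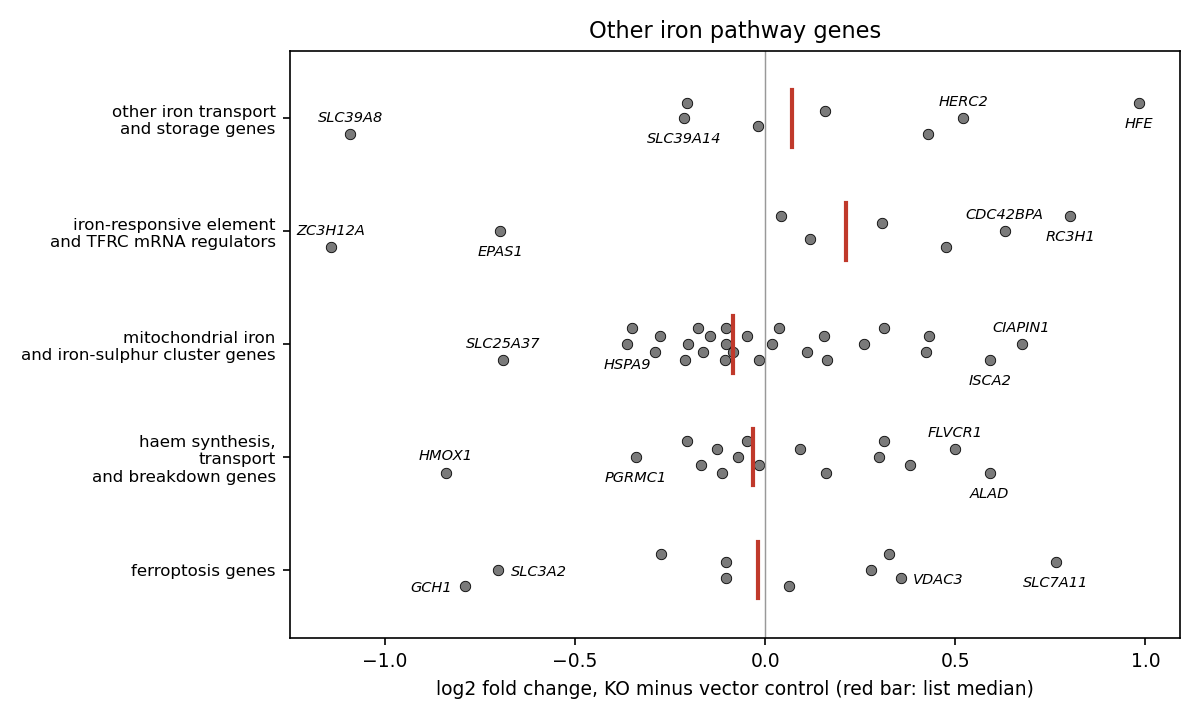
Log2 fold change, KO minus vector control, of the 69 tested iron pathway genes outside the 10, by list, with each list's median as a red bar. The 2 highest and 2 lowest genes of each list are named, and joined rows are left out. The list medians lie between -0.09 and 0.21.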

How the data were processed

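Total RNA of 3 LINC00901 KO and 3 vector control libraries of MIA PaCa-2 was measured. The authors deposited FPKM values (scaled for transcript length and sequencing depth) for each library in 1 table, per the file headers. The build hg19 and the tools HISAT2, cutadapt and FastQC are named per the submitters' processing notes. How FPKM was computed, on which annotation and with which strand setting was not given in the sources used here, and depth is unknown. Of the 18268 rows, 990 join several symbols and were kept as 1 unit each. The 13 mitochondrially encoded rows are at 0 throughout, so an exact 0 can be an unmeasured value.

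The 9624 genes reaching 1 FPKM in 3 or more libraries were fitted with limma 3.58.1 in R 4.3.3 on log2(FPKM + 1), KO against vector control, using eBayes with a trend and two-sided p-values adjusted by Benjamini-Hochberg. Fold changes on this scale understate those of low genes. The script was tested on simulated data. Members and lists were chosen with earlier results of these data known. Named were all 10 members, every called gene and the 2 highest and 2 lowest fold changes of each of the 5 pathway lists, and the 3 genes most like TFRC and FTH1. HAMP, TFR2, HEPH, CP, CUL1, CIAO2A and the row of ACSL4 and KCNE5 were named after their values were seen. Elements were searched in GENCODE 29 transcripts on GRCh38. Alternatives were other pseudocounts, filters, scalings and limma settings, a replicate block and each library left out.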

Additional observations from a re-analysis of the deposited data

How the results depend on the processing

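The 130 calls over all genes became 241 without a filter, 59 with a filter at 5 FPKM and 4020 with array weights in a robust limma fit. With 1 library left out they ran from 25 (without KO 3) to 1329 (without vector control 1). They were 29 without KO 2 and 39 without vector control 2 or 3. Of the 69 iron pathway genes, 2 (SLC39A8 and GCH1) were called after quantile normalization, 26 with array weights, and 0 to 13 with 1 library left out, the 13 without vector control 1. With array weights limma called 41.8% of all genes. The cause was not tested.

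TFRC, FTH1, ACO1 and the HYKK and IREB2 row kept their direction under all 15 alternatives, with log2 fold changes of 0.26 to 1.86, -0.74 to -0.22, -0.33 to -0.02 and 0.36 to 0.67. The other filters, limma without trend and the replicate block could not change a fold change, so they say nothing about direction. FTL ran from -0.45 to 0.24, NCOA4 from -0.27 to 0.06, PCBP1 from -0.10 to 0.13, SLC11A2 from -0.23 to 0.08 and STEAP3 from -0.52 to 0.08, so their direction was not fixed. With the replicate number as a block, 7 genes were called over all genes and 0 of the pathway genes. Same-numbered libraries did not deviate together (r = -0.37, -0.15 and -0.26 for numbers 1, 2 and 3), and 0 of the 3 KO libraries correlated best with their own number. Depth is unknown, so what it limits was not tested.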
